A study of Homo sapiens with 8 samples.

Results

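The genes described here are 9 secreted or membrane-bound matrix proteases and protease inhibitors, MMP1, MMP2, MMP14, TIMP1, TIMP2, TIMP3, HTRA1, HTRA3 and PLAU, which were chosen by name from the 18955 genes in the count table. All 9 were present. They were measured by single-cell RNA sequencing in SUM159, a human cell line derived from a triple-negative breast carcinoma, tagged in every group with a library of lentiviral DNA barcodes. The 8 libraries were pre-treatment cells (602 cells, no drug), cells kept in DMSO vehicle (459), and cells kept in 0.6 nM paclitaxel (752), in 100 nM JQ1 (697 cells in the library called JQ1-A and 868 in the library called JQ1-B), in JQ1+paclitaxel (643), in 160 nM palbociclib (693) and in JQ1+palbociclib (1024), for up to 18 passages. DMSO, paclitaxel, JQ1-A and JQ1+paclitaxel came from 1 experiment. Palbociclib, JQ1-B and JQ1+palbociclib came from a separate one without a vehicle library. Cultures of a treatment were pooled in equal cell numbers into 1 library, and JQ1+palbociclib had 2 surviving cultures. JQ1 displaces BET bromodomain proteins from chromatin. Paclitaxel stabilises microtubules, and palbociclib inhibits CDK4 and CDK6.

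Matrix metalloproteinases are zinc enzymes that are secreted as inactive proenzymes and cut collagens and other matrix proteins. MMP14 stays in the plasma membrane, where it activates MMP2 in a complex with TIMP2, and the TIMP proteins block the active sites of these enzymes. PLAU (urokinase) turns plasminogen into plasmin, and HTRA1 and HTRA3 are secreted serine proteases that cut fibronectin and other matrix proteins.

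Libraries held between 10621159 unique molecular identifiers (UMIs, each standing for 1 captured RNA molecule) in DMSO and 24240835 in JQ1+palbociclib, and the mean per cell lay between 22305 and 24171. The mesenchymal markers VIM (3279 to 4502 CPM, the UMIs of a gene scaled to a library total of 1e6), FN1 (56.1 to 284 CPM) and CD44 (228 to 437 CPM) were present in all 8 libraries. So were the keratin genes KRT7 (501 to 1419 CPM), KRT8 (275 to 445 CPM) and KRT18 (313 to 669 CPM). The keratin gene KRT19 reached 0.165 CPM, the epithelial gene EPCAM 0.565 CPM and the blood-cell gene PTPRC 0.471 CPM at most. CD68 lay between 7.71 and 12.1 CPM. Of the receptor genes behind the triple-negative label, the estrogen receptor gene ESR1 reached 0.124 CPM and the progesterone receptor gene PGR 0.139 CPM at most. The receptor gene ERBB2 lay between 5.3185 and 12.0045 CPM, so its RNA was present in all 8 libraries. Of the fibroblast genes, LUM reached 0.209 CPM, DCN lay between 1.07 and 34.4 CPM and PDGFRB between 1.32 and 5.92 CPM. The median mitochondrial share of a cell ran from 3.72% in paclitaxel to 7.18% in JQ1+palbociclib, and its part in the results below was not tested. Of all cells, 26 (0.45%) carried a cell barcode that was also found in another library.

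Promoter sequences are shown for HTRA1, HTRA3 and TIMP3, each higher in JQ1+palbociclib cells with a UMI of the collagen gene COL1A1 (described with the cells). TIMP1, which was not, is shown beside them. These genes were picked by that split, so their motif counts test nothing about it. Each is the 250 bases before the transcription start in RefSeq on GRCh38.p14, read 5′ to 3′ along the gene, with every GC box (GGGCGG or its reverse complement CCGCCC, the core of an SP1 motif) in capitals.
HTRA1, chr10:122461303-122461552, + strand: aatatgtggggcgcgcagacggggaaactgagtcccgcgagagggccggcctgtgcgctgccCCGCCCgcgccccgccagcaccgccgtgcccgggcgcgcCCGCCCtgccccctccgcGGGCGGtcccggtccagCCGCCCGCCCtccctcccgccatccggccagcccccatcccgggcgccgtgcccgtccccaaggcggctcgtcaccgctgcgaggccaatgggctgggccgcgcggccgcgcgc
HTRA3, chr4:8269504-8269753, + strand: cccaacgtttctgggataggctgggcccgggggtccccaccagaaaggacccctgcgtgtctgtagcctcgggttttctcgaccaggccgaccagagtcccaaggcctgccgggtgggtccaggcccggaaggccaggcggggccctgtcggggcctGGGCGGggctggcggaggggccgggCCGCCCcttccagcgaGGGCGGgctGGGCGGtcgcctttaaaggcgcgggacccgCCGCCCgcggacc
TIMP3, chr22:32801455-32801704, + strand: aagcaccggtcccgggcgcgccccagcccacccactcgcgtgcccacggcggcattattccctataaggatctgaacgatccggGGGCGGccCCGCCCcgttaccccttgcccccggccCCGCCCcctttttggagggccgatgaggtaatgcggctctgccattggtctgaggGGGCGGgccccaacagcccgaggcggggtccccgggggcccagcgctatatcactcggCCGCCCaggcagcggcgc
TIMP1, chrX:47582186-47582435, + strand: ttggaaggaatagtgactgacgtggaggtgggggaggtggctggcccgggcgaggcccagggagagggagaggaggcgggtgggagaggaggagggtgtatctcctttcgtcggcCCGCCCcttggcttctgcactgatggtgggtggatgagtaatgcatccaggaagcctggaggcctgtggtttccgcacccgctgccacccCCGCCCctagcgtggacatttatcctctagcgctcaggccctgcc
HTRA1, HTRA3 and TIMP3 each held 5 GC boxes, counting overlapping ones separately, a number reached by 4.15% of the 35116 RefSeq promoters of the same length. TIMP1 held 2, MMP14 held 1 and PLAU none, and 42.6% of all promoters held at least 1. The GC content of these windows was 81.2% for HTRA1, 74.8% for HTRA3, 72.4% for TIMP3, 64.8% for TIMP1, 56.8% for MMP14 and 46.8% for PLAU, against a median of 58.0% over all promoters. Neither TGANTCA, the AP-1 motif (found on either strand in 6.57% of promoters), nor TATAAA (10.7%) was in any of these 6 windows. Promoter entries were matched for 6 of the 9 genes. The share of 4.15% is over promoters of any GC content, and the part of these motifs in the levels was not tested.

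Levels of the 9 genes followed different orders across the 8 libraries. MMP1, MMP2 and MMP14 were each highest in a library with palbociclib, TIMP1, TIMP3 and HTRA3 in paclitaxel, TIMP2 and HTRA1 in JQ1+palbociclib, and PLAU in pre-treatment. The 2 drug-free libraries and the 2 JQ1 libraries show how far libraries with the same drug exposure lay apart. Pre-treatment and DMSO also differ in passaging and vehicle, and JQ1-A and JQ1-B in experiment. DMSO was 2.17-fold above pre-treatment for TIMP1 and 0.38-fold for MMP1, and JQ1-B was 2.38-fold above JQ1-A for MMP1. For TIMP2, DMSO stood at 1.01 and JQ1-B at 0.853 times its counterpart, and for HTRA3 these ratios were 1.04 and 0.979. They were 0.989 and 0.588 (0.510 to 0.676) for HTRA1, and 1.64 and 0.755 for TIMP3.

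**Figure D1:**
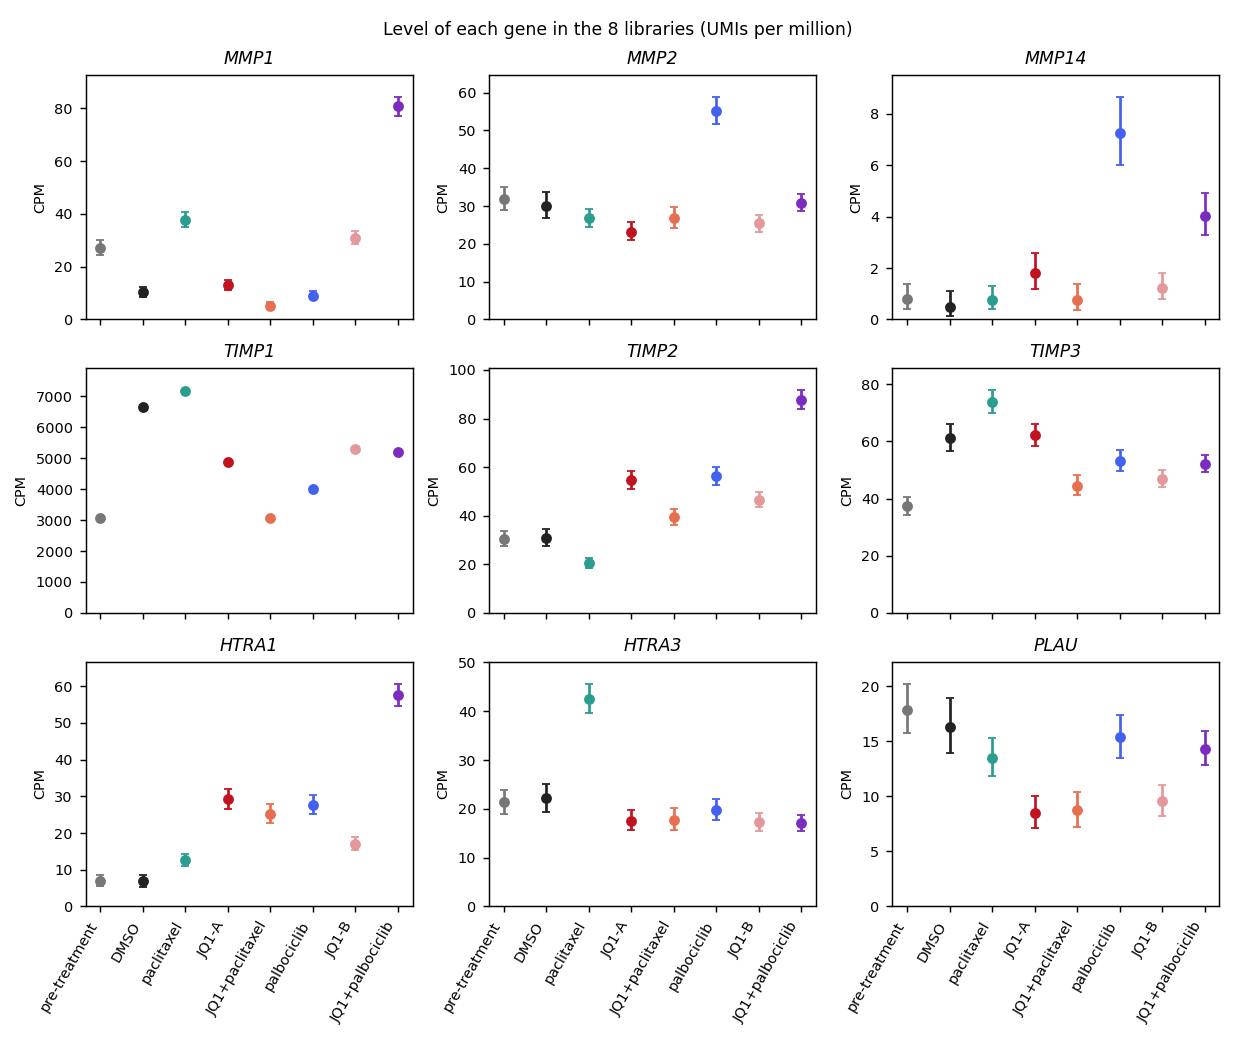
Level of each gene in CPM (y axis from 0, own scale per panel) in the 8 libraries (x axis), with exact Poisson 95% intervals that cover counting error only and are narrower than the point for TIMP1. HTRA1 rises from 6.87 CPM in DMSO to 57.5 CPM in JQ1+palbociclib, and MMP14 stands at 7.25 CPM in palbociclib and at most 1.79 CPM in every library without it.

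Exposure to JQ1 (4 libraries against 4) was compared first. By the quasi-likelihood test of edgeR, with Benjamini-Hochberg adjustment over 9288 genes, HTRA1 and TIMP2 were higher and PLAU lower with JQ1, so 3 of the 8 genes tested were called. Of all genes tested 37.6% were called (17.8% higher and 19.7% lower), so 3 of 8 was near the share over all genes. MMP14 was below the filter of 5 CPM in 2 libraries. With library totals in place of TMM factors the median gene moved by -0.20 on the log2 scale and the split of all calls went from 1655 higher and 1833 lower to 865 higher and 2912 lower. HTRA1 and TIMP2 stayed higher on that scale too.

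HTRA1, a secreted serine protease (GRCh37 chr10:124218067-124274423, + strand), was at 6.95 CPM in pre-treatment, 6.87 in DMSO, 12.6 in paclitaxel and 27.7 in palbociclib, and at 29.2 in JQ1-A, 25.2 in JQ1+paclitaxel, 17.1 in JQ1-B and 57.5 in JQ1+palbociclib. The 2 drug-free libraries were the lowest, and palbociclib overlapped the JQ1 libraries. The log2 fold change with JQ1 was 1.55 ± 0.22 (SE, adjusted p = 0.00224). Within experiments, JQ1-A was 4.24 times DMSO (95% interval for counting error 3.31 to 5.51), JQ1+paclitaxel was 2.0 times paclitaxel (1.69 to 2.37) and JQ1+palbociclib was 2.08 times palbociclib (1.87 to 2.31). HTRA1 thus stood higher with JQ1 in each of the 3 matched pairs.

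TIMP2 (chr17:76849059-76921469, − strand), the inhibitor that takes part in MMP2 activation, was at 30.6 CPM in pre-treatment, 31.0 in DMSO, 20.5 in paclitaxel and 56.2 in palbociclib, and at 54.6 in JQ1-A, 39.5 in JQ1+paclitaxel, 46.6 in JQ1-B and 87.8 in JQ1+palbociclib. Only palbociclib among the libraries without JQ1 reached the range of those with it. The log2 fold change with JQ1 was 0.95 ± 0.12 (SE, adjusted p = 0.00138). The matched ratios were 1.76 for JQ1-A to DMSO, 1.93 for JQ1+paclitaxel to paclitaxel and 1.56 for JQ1+palbociclib to palbociclib.

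PLAU, urokinase (chr10:75668935-75677254, + strand), was at 17.9 CPM in pre-treatment, 16.3 in DMSO, 13.5 in paclitaxel and 15.3 in palbociclib, and at 8.47 in JQ1-A, 8.72 in JQ1+paclitaxel, 9.56 in JQ1-B and 14.3 in JQ1+palbociclib. JQ1+palbociclib lay within the range of the libraries without JQ1 and the other 3 JQ1 libraries lay below it. The log2 fold change was -0.44 ± 0.14 (SE, adjusted p = 0.0389). This call was lost without any 1 of 6 libraries (adjusted p = 0.0537 without JQ1+paclitaxel and 0.135 without JQ1-A), and with experiment as a term (adjusted p = 0.254).

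The other genes tested did not pass with JQ1 after TMM scaling. Without TMM factors 4 of the 8 genes were called, 2 higher and 2 lower, where 40.7% of all genes were called. HTRA3 was then called lower beside PLAU. HTRA3, a relative of HTRA1 (chr4:8271481-8308825, + strand), was at 21.3 CPM in pre-treatment, 22.1 in DMSO, 42.5 in paclitaxel and 19.8 in palbociclib, and between 17.1 and 17.8 in the 4 JQ1 libraries. The groups did not overlap on this scale, on which 22.7% of all genes tested were lower and 5.45% higher without overlap. After TMM scaling, where the shares were 12.8% and 11.7%, they did overlap, and the log2 fold change was -0.33 ± 0.16 (adjusted p = 0.131). MMP1 (0.44 ± 0.83, adjusted p = 0.693), MMP2 (-0.19 ± 0.16, 0.364), TIMP1 (0.03 ± 0.28, 0.946) and TIMP3 (0.08 ± 0.20, 0.760) differed by no more than the spread between libraries, and the signs of TIMP1 and TIMP3 turned to -0.17 and -0.11 without TMM factors. In the paclitaxel experiment alone TIMP1 was called lower with JQ1 (-0.54, adjusted p = 0.00526).

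**Figure D2:**
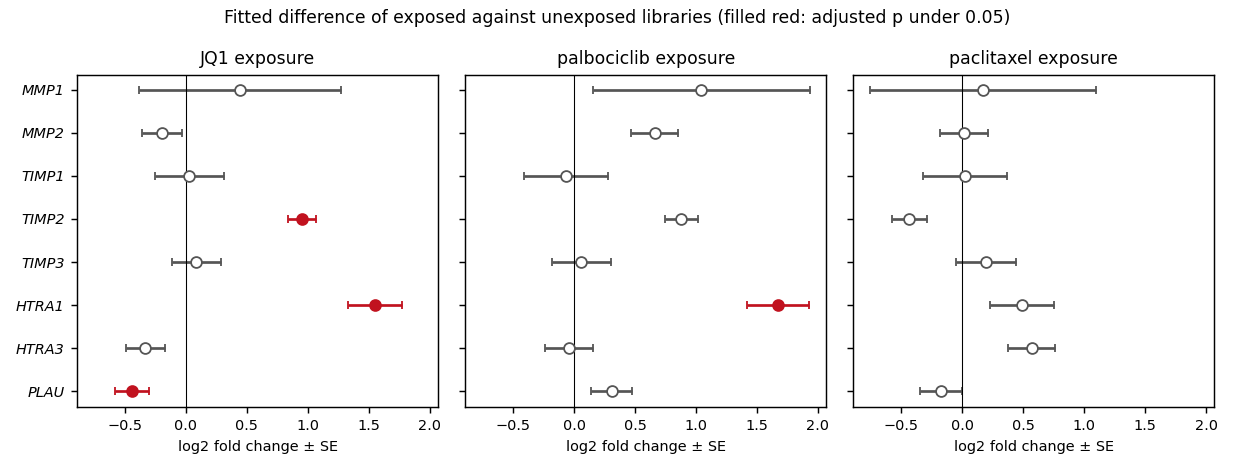
Log2 fold change with its standard error (x axis) for the 8 genes tested, for exposure to each drug (4 libraries with JQ1, 2 with palbociclib and 2 with paclitaxel, each against the rest) in the additive edgeR model, with filled red points for an adjusted p under 0.05. HTRA1 is the gene called for both JQ1 (1.55) and palbociclib (1.67), TIMP2 (0.95) and PLAU (-0.44) are called for JQ1 alone, and the error bars of MMP1 are the widest.

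Exposure to palbociclib (2 libraries against 6) gave 1 call among the 8 genes, HTRA1, against 0.28% of all genes tested (0.205% higher). The log2 fold change of HTRA1 was 1.67 ± 0.25 (SE, adjusted p = 0.0436) and that of TIMP2 was 0.88 ± 0.14 (adjusted p = 0.0504). HTRA1 in JQ1+palbociclib was 3.36 times JQ1-B (2.98 to 3.79), which is the only library of that experiment without palbociclib, and palbociclib alone was 1.62 times JQ1-B. With experiment as a term the HTRA1 estimate was 1.95 but the adjusted p was 0.898, and the call was also lost without pre-treatment (adjusted p = 0.186), DMSO (0.207), palbociclib (0.193) or JQ1-B (0.215), and without the cells above the 95th percentile of UMIs (0.0515). TIMP2 crossed the threshold the other way under several settings, for example without paclitaxel (adjusted p = 0.0247).

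MMP2 (gelatinase A, chr16:55423612-55540603, + strand) was at 55.2 CPM in palbociclib. It was at 31.9 in pre-treatment, 30.1 in DMSO, 26.8 in paclitaxel, 23.2 in JQ1-A, 26.9 in JQ1+paclitaxel, 25.4 in JQ1-B and 30.8 in JQ1+palbociclib. The single library with palbociclib alone stood apart, and JQ1+palbociclib was 0.558 times palbociclib (0.506 to 0.615). The log2 fold change with palbociclib over both libraries was 0.66 ± 0.19 (adjusted p = 0.112). It was 0.22 without the palbociclib library and 1.04 (adjusted p = 0.0223) without JQ1+palbociclib.

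MMP14, the membrane-bound activator of MMP2 (chr14:23305769-23318250, + strand), was at 7.25 CPM in palbociclib (120 UMIs) and 4.04 in JQ1+palbociclib (98 UMIs). The other libraries were at 0.780 in pre-treatment, 0.471 in DMSO, 0.770 in paclitaxel, 1.79 in JQ1-A, 0.767 in JQ1+paclitaxel and 1.23 in JQ1-B, from 5 to 29 UMIs each. Both palbociclib libraries lay above all 6 others, as did 9.3% of all genes tested. TIMP2 did so as well on this scale (56.2 against at most 54.6 CPM) but not after TMM scaling, where MMP2 did, with 7.67% of genes. When all genes with at least 10 UMIs were tested the log2 fold change was 2.37 ± 0.42 (adjusted p = 0.0561). Against JQ1-B, palbociclib alone stood at 5.89 times for MMP14, 2.17 for MMP2, 1.61 for PLAU, 1.21 for TIMP2, 1.15 for HTRA3, 1.13 for TIMP3, 0.755 for TIMP1 and 0.292 for MMP1.

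Exposure to paclitaxel (2 libraries against 6) gave no call among the 8 genes and 0 among all 9288 by edgeR, where 395 had an unadjusted p under 0.05 and DESeq2 called 9. HTRA3 (log2 fold change 0.57 ± 0.19), HTRA1 (0.49 ± 0.26) and TIMP2 (-0.43 ± 0.15) had an adjusted p of 0.885 each. For HTRA3 the paclitaxel library stood at 1.92 times DMSO (1.66 to 2.23), whereas JQ1+paclitaxel stood at 1.01 times JQ1-A (0.849 to 1.20).

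Whether a partner drug's difference depended on JQ1 was asked with interaction terms, for which 2 residual degrees of freedom were left. The palbociclib experiment had no vehicle library, so its term sets palbociclib against drug-free libraries from outside that experiment. No interaction was fitted with experiment as a term, so the part of experiment was not tested. No gene of the 8 was called for either term, against 1 gene (0.0108%) over all for palbociclib and 36 (0.388%) for paclitaxel. MMP1, interstitial collagenase (chr11:102660132-102668891, − strand), had the largest estimates, 2.77 ± 0.74 with palbociclib (adjusted p = 0.156) and -3.01 ± 0.79 with paclitaxel (adjusted p = 0.145). Its levels were 27.2 CPM in pre-treatment, 10.4 in DMSO, 37.6 in paclitaxel, 13 in JQ1-A, 5.23 in JQ1+paclitaxel, 9.06 in palbociclib, 31.0 in JQ1-B and 80.6 in JQ1+palbociclib. Between matched libraries, adding JQ1 to palbociclib went with 8.90 times the MMP1 level (7.54 to 10.6) and adding JQ1 to paclitaxel with 0.139 times (0.108 to 0.177). JQ1+palbociclib and JQ1+paclitaxel were thus the highest and the lowest of the 8 libraries for MMP1. Left with 1 residual degree of freedom, the MMP1 terms were called without pre-treatment (1.87 and -3.91) and without DMSO (3.27 and -2.50), the 2 libraries between which MMP1 itself differed. In those fits 6.48% and 12.4% of all genes were called without pre-treatment, and 12.1% and 6.7% without DMSO.

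TIMP1 (chrX:47441807-47446188, + strand), a secreted inhibitor of many metalloproteinases, was at 3060 CPM in pre-treatment, 6640 in DMSO, 7147 in paclitaxel, 4861 in JQ1-A, 3059 in JQ1+paclitaxel, 3992 in palbociclib, 5289 in JQ1-B and 5209 in JQ1+palbociclib. JQ1+paclitaxel was 0.428 times paclitaxel and 0.629 times JQ1-A, yet it equalled the untreated pre-treatment library. The interaction with paclitaxel was -1.25 ± 0.46 (adjusted p = 0.228). TIMP3, the inhibitor that binds to the matrix (chr22:33197691-33259028, + strand), was at 37.3 CPM in pre-treatment, 61.2 in DMSO, 73.8 in paclitaxel, 62.2 in JQ1-A, 44.6 in JQ1+paclitaxel, 53.2 in palbociclib, 47.0 in JQ1-B and 52.2 in JQ1+palbociclib. As for TIMP1, pre-treatment was low and paclitaxel high, and the interaction with paclitaxel was -0.84 ± 0.37 (adjusted p = 0.290).

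Of 66 other genes listed for these pathways, 53 were in the table and 26 were tested. With JQ1, 15 were called higher and 2 lower, 65.4% against 37.6% of all genes, with a median log2 fold change of 0.37 against -0.00 over all genes tested. Without TMM factors the counts were 9 higher and 6 lower, where 40.7% of all genes were called. With 3 matched pairs of libraries as blocks they were 2 higher and 0 lower, where 3.94% of all genes were called. Because the list was chosen with earlier results of these data known, these shares describe it and test nothing. No listed gene was called with palbociclib or paclitaxel. The called genes whose libraries did not overlap were PLAT, tissue plasminogen activator (1.0 ± 0.15, 64.2 to 183 CPM with JQ1 and 53.0 to 63.9 without), MMP17, a membrane-anchored metalloproteinase (1.11 ± 0.20), RECK, a membrane-anchored inhibitor of metalloproteinases (1.08 ± 0.23), MMP16, another membrane metalloproteinase (0.74 ± 0.18), the lysosomal protease CTSL (-0.91 ± 0.16) and PLAUR, the urokinase receptor (-0.82 ± 0.17). Libraries did not overlap for 6 of the 26 listed genes and for 2615 of all 9288 genes tested (5.45% higher and 22.7% lower).

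The plasminogen activator genes differed in direction with JQ1. PLAU and its receptor PLAUR were called lower, though the PLAU call was lost in several fits, as given above. PLAUR was at 17.3 to 21.2 CPM with JQ1 and 22.1 to 52.7 without, though after TMM scaling its groups overlapped. For PLAU and PLAUR, JQ1-A stood at 0.5198 and 0.403 times DMSO, and JQ1+paclitaxel at 0.647 and 0.368 times paclitaxel. JQ1+palbociclib stood at 0.933 and 0.872 times palbociclib, with counting intervals that included equal levels for both genes. PLAT was higher (adjusted p = 0.00281). SERPINE2, an inhibitor of serine proteases (0.34 ± 0.16, adjusted p = 0.123), did not pass. SERPINB2 had at most 16 UMIs in a library and none in JQ1+palbociclib, where 3 UMIs would be 0.124 CPM.

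Values per cell were taken from the 5487 cells that passed the study's filter after thinning each to 10000 UMIs. All cells are of 1 line, so no cell type that lacks these genes was there to give the share that free RNA adds. TIMP1 was detected in 99.5 to 100.0% of the cells of each library, but its level differed widely among them. The 10th and 90th percentiles were 3 and 69.8 UMIs in pre-treatment, 10 and 155 in paclitaxel and 9 and 106 in JQ1+palbociclib, and the ratio between the percentiles ran from 11.8 to 23.3. When the UMIs of each cell were divided at random into 2 parts, the TIMP1 counts of the parts correlated with r = 0.858 to 0.941 across cells, against 0.416 to 0.654 for MMP1, 0.235 to 0.358 for TIMP3 and at most 0.284 for the other 6 genes.

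MMP1 was concentrated in few cells. A UMI was found in 9.61% of pre-treatment cells, 6.07% in DMSO, 13% in paclitaxel, 5.38% in JQ1-A, 2.31% in JQ1+paclitaxel, 3.63% in palbociclib, 9.32% in JQ1-B and 23.3% in JQ1+palbociclib (exact 95% interval 20.6 to 26%). In JQ1+palbociclib an even spread of the same UMIs would have reached 48.0% of cells, and 3.81% of the cells held 50% of the MMP1 UMIs. In JQ1+paclitaxel 0.495% of the cells held that share, and in JQ1-B a single cell had 59 UMIs. Variation between cells in excess of counting noise, as a squared coefficient of variation, was 9.07 to 66.8 for MMP1 and 0.148 to 0.546 for TIMP2.

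Shares of cells with a UMI for the other genes ordered the libraries much as their levels did. HTRA1 was detected in 5.84% of DMSO cells and 40.7% of JQ1+palbociclib cells, TIMP2 in 19.0% in paclitaxel and 57.2% in JQ1+palbociclib, and MMP2 in 42.6% in palbociclib and 18.6 to 27.2% elsewhere. MMP14 was found in 7.10% of palbociclib and 5.04% of JQ1+palbociclib cells and in at most 1.54% in the other libraries. TIMP3 ranged from 20.6 to 36.8%, HTRA3 from 13.7 to 28% and PLAU from 6.77 to 13%. TIMP2 and MMP2 lay close to the share that an even spread gives, and TIMP3 lay below it.

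**Figure D3:**
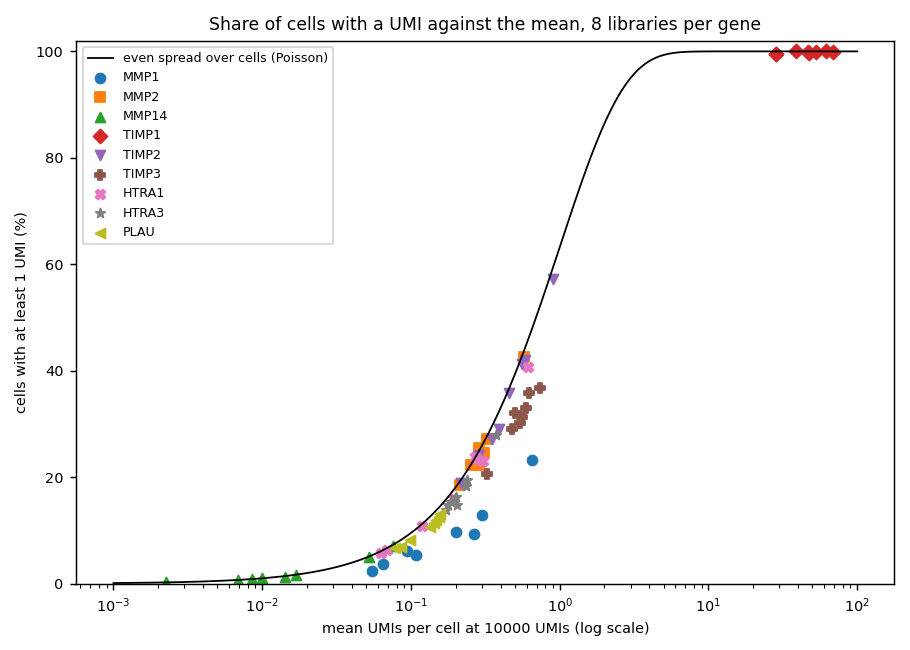
Share of cells with at least 1 UMI (y axis, %) against the mean UMIs per cell (x axis, log scale) at 10000 UMIs per cell, 1 point per gene and library, with the curve for UMIs spread evenly over cells. MMP1 lies furthest below the curve, at 23.3% instead of 48.0% in JQ1+palbociclib, whereas TIMP2 and MMP2 lie near it.

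Relations among the 36 pairs of genes across the cells of a library were weak, and cells of a library share its depth and processing. Spearman's rho ran from -0.19 to 0.22 in JQ1+palbociclib (972 cells) and was under 0.1 in size for 28 of the 36 pairs. TIMP3, HTRA1 and HTRA3 were the 3 genes with the highest values there, at 0.22 for TIMP3 with HTRA1, 0.21 for TIMP3 with HTRA3 and 0.20 for HTRA1 with HTRA3. Among cells of that library with a TIMP3 UMI 53.3% also had an HTRA1 UMI, and among those without 35.0% did. For HTRA3 these shares were 24.3% and 10.5%. TIMP1 with TIMP3 was at -0.12 in JQ1+palbociclib and between 0.03 and 0.20 in the other 7 libraries. TIMP1 with HTRA3 was at -0.19 in JQ1+palbociclib, as in pre-treatment. TIMP1 also varied with the UMIs of the cell before thinning, with a rho of 0.33 in JQ1+palbociclib.

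**Figure D4:**
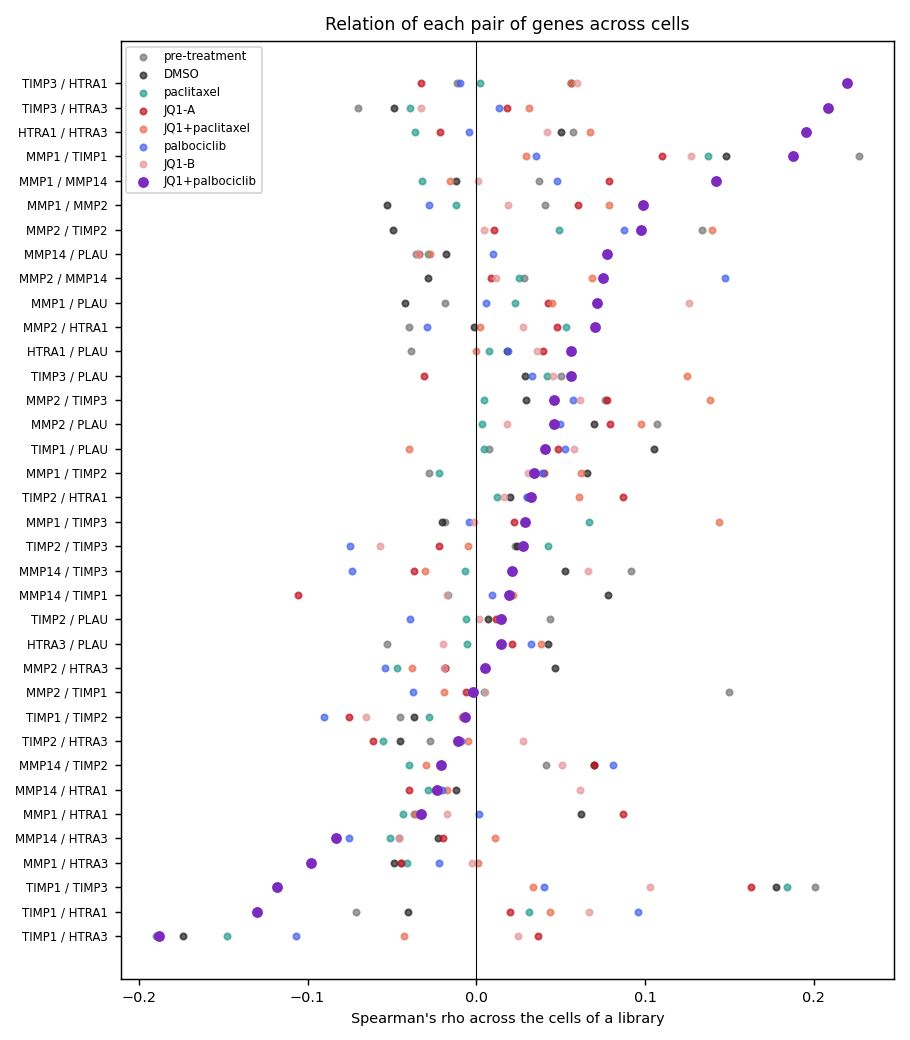
Spearman's rho across cells (x axis) for each of the 36 pairs of genes (y axis, ordered by JQ1+palbociclib), 1 point per library with JQ1+palbociclib as the large purple point. TIMP3, HTRA1 and HTRA3 pair at 0.20 to 0.22 in JQ1+palbociclib, and TIMP1 with TIMP3 stands at -0.12 there, left of the other 7 libraries.

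The cells of JQ1+palbociclib were then split by a UMI of COL1A1, a fibrillar collagen gene, or of PKIB, an inhibitor of protein kinase A. Both genes were taken from earlier cell groups of this library that HTRA3, TIMP3 and MMP1 themselves helped to define, so the splits describe the members and test nothing. In the 160 cells with a COL1A1 UMI (16.5%) TIMP3 was at 135 CPM, HTRA1 at 114 and HTRA3 at 50 CPM. In the 812 cells without one they were at 39.9, 50.7 and 14.4 CPM, which gives ratios of 3.38 (2.83 to 4.03), 2.24 (1.87 to 2.68) and 3.47 (2.58 to 4.65). The other 6 genes had ratios between 0.934 for TIMP1 and 1.18 for MMP2. A COL1A1 UMI was found in 22.0% (paclitaxel) to 43.6% (DMSO) of cells in the other 7 libraries. The split thus takes unlike shares of cells, and the part of this in the ratios was not tested. In the other 7 libraries the TIMP3 ratio was 0.761 in pre-treatment, 1.09 in DMSO, 1.19 in paclitaxel, 1.39 in JQ1-A, 1.35 in JQ1+paclitaxel, 1.90 in palbociclib and 1.30 in JQ1-B. HTRA3 reached at most 1.61 there, in JQ1-A, and HTRA1 at most 2.33, in DMSO, from 28 UMIs in all.

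A UMI of PKIB marked other members. In the 207 JQ1+palbociclib cells with one (21.3%), MMP1 was at 177 CPM against 35.2 in the 765 without, a ratio of 5.03 (4.28 to 5.91). MMP14 (ratio 3.29), MMP2 (1.78), PLAU (1.73) and TIMP1 (1.19) were also higher in those cells, and HTRA3 was lower at 9.66 against 23.1 CPM (ratio 0.418). In the other libraries the MMP2 ratio ran from 0.916 in palbociclib to 1.66 in JQ1-A. That of PLAU ran from 0.761 in paclitaxel to 1.79 in palbociclib. A PKIB UMI was found in 25.2% (JQ1-A) to 53.7% (DMSO) of cells in the other libraries, so this split also takes unlike shares. The MMP1 ratio was above 1 in each of the 8 libraries, at 2.14 in pre-treatment, 1.40 in DMSO, 2.65 in paclitaxel, 2.80 in JQ1-A, 5.09 in JQ1+paclitaxel, 7.69 in palbociclib and 1.72 in JQ1-B, though the counting interval of DMSO (0.724 to 2.79) included 1. In JQ1+palbociclib the PKIB ratios of TIMP3 (0.956, 0.769 to 1.18) and HTRA1 (0.887, 0.717 to 1.09) had counting intervals that included 1. Cells with a UMI of both COL1A1 and PKIB were not counted, so how far the splits share cells was not tested.

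**Figure D5:**
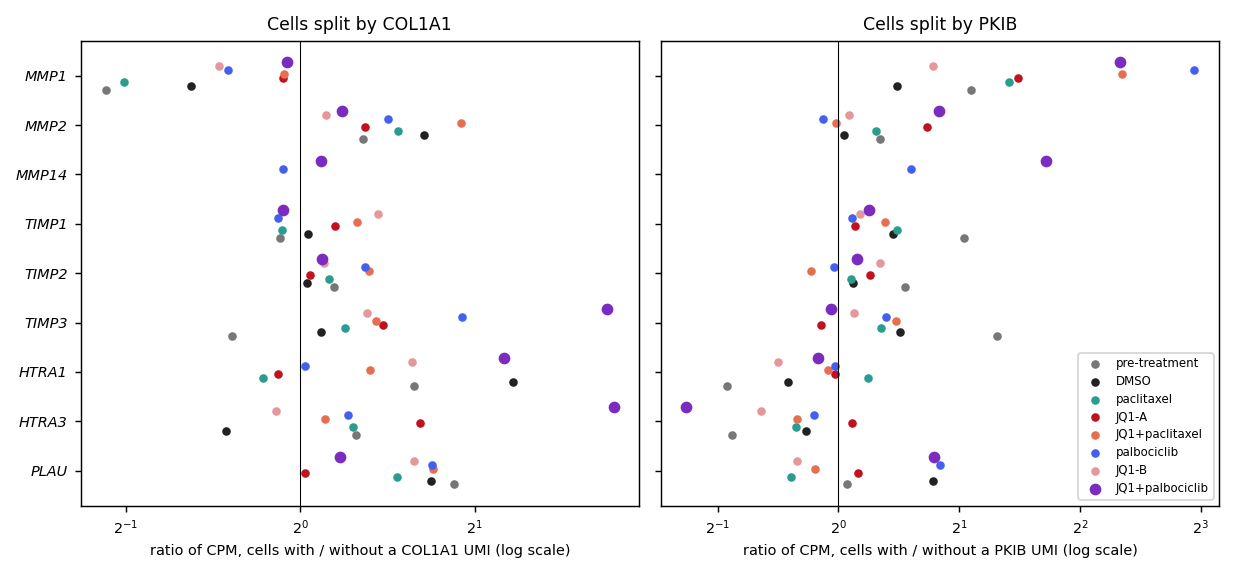
Ratio of CPM between cells with and without a UMI of COL1A1 (left) or PKIB (right) on a log2 x axis, for each gene (y axis) and library (colours, JQ1+palbociclib as the large purple point), where the gene had at least 20 UMIs. TIMP3 and HTRA3 stand above 3 with COL1A1 in JQ1+palbociclib alone, and MMP1 stands above 1 with PKIB in all 8 libraries. The share of cells with the splitting gene differs between libraries and is lowest in JQ1+palbociclib for both.

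Genes most like each member were found by 2 measures. Across the 972 JQ1+palbociclib cells, the genes most like MMP1 by Spearman's rho were PKIB (0.36), C12orf75 (0.27) and SH3BGRL3 (0.26), and in the other libraries MMP1 with PKIB lay between -0.00 and 0.17. For HTRA1 they were the matrix genes FN1 (0.29), TGFBI (0.26) and COL1A1 (0.25). TIMP3 was most like S100A4 (0.38), RPL13 (0.35) and RPSA (0.34), and HTRA3 most like TPT1 (0.29), RPL21 (0.28) and RPSA (0.26). TIMP1 was most like GSTP1 (0.61), PSMA7 (0.55) and S100A10 (0.53). For MMP2 (PKIB, SMPD1 and HYOU1), MMP14 (PKIB, GPR116 and MMP1), TIMP2 (RPL39, NEAT1 and MT-CO1) and PLAU (IGFBP4, C9orf16 and TSPAN14) the highest rho was at most 0.16.

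Over the 8 libraries, Pearson's r of log2(CPM + 1) placed RAB22A, GATAD2A and DCBLD2 next to MMP1 (0.95 to 0.96), MUC1, KIAA0195 and ETS1 next to MMP2 (0.96 to 0.97), and HELZ, SMAD5 and ZBTB38 next to MMP14 (0.96). TIMP1 stood with KIAA2013, LRRC8D and SLC2A1 (0.92 to 0.98), TIMP2 with PSAP, MKLN1 and METRNL (0.99), and TIMP3 with IRX3, NSD1 and FAM20B (0.88 to 0.90). HTRA1 stood with CBFA2T2, FOXJ3 and TAOK1 (0.99), HTRA3 with CPED1, NAA25 and UTP20 (0.97), and PLAU with RTKN, PXMP4 and POPDC3 (0.96 to 0.98). These are the highest of 9287 genes for each member (9288 for MMP14) over 8 points that share drugs and experiments, and describe order only.

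With cells scored across libraries, MMP2 was higher in cells called G1 than in cells called S in each of the 8 libraries, for example at 33.3 against 24.3 CPM in JQ1+palbociclib and 58.3 against 54.8 in palbociclib. Scored within each library the order turned in pre-treatment (30.9 against 32.6 CPM). HTRA1 was at 69.5 CPM in G1 cells, 54.0 in S cells and 49.6 in G2/M cells of JQ1+palbociclib.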

How the data were processed

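SUM159 cells were profiled with 10x Chromium 3' v2 chemistry, and the authors aligned reads to hg19 and counted UMIs with CellRanger 2.1.0. The deposited table holds raw UMI counts per gene and cell, not normalized. Cells were assigned to libraries by the deposited cell table, whose per-cell totals are also counts. The study's filter (1 to 15% mitochondrial UMIs, at least 2000 genes), which 5575 of 5738 cells (97.2%) passed, was not applied in the table. No doublet caller was run because all cells are of 1 line.

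Cells are not replicates, so UMIs were summed over the cells of each library. Testing was limited to genes reaching 5 CPM in at least 2 libraries, with edgeR 4.0.16 in R 4.3.3 (TMM, quasi-likelihood, additive terms for the 3 drugs, 4 residual degrees of freedom). Calls were made below an adjusted p (Benjamini-Hochberg) of 0.05. The p-values measure the spread between these libraries, which differ in drug and experiment. Standard errors were derived from the fold change and F and are approximate. The script was tested on simulated data. The alternatives were DESeq2 1.42.0, other scaling and filters, fewer cells or libraries, and terms for experiment or matched pairs. Overlap after TMM scaling was added after the data were seen.

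Between single libraries no test was made, and ratios carry exact conditional 95% intervals that cover counting error only. Shares carry exact binomial intervals. Per-cell values used cells thinned to 10000 UMIs, leaving out 88 shallower cells. Phases were called with Seurat 5.3.0. C10orf55 (133 UMIs), SYN1 (204) and SYN3 (27) overlap PLAU, TIMP1 and TIMP3 on the opposite strand. CEP295NL, which is not among the genes counted, overlaps TIMP2 on the same strand. Sharing of reads between overlapping genes was not tested. Positions are from GENCODE on GRCh37. Named were the 9 members, their closest genes by each measure (3 each), plasminogen activator partners (1 is not reported here), COL1A1 and PKIB, and listed pathway genes called with libraries that did not overlap. The members and lists were chosen with earlier results of these data known.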

Additional observations from a re-analysis of the deposited data

Results flagged for a closer look

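In groups of 4 or 6 libraries formed by drug, Dixon's 95% criterion was exceeded 5 times among 36 groups examined. The same HTRA3 level was flagged in more than 1 group. Chance flags about 1 in 20 separate groups, but the groups of a gene share libraries, so that rate is no yardstick here. MMP1 in JQ1+palbociclib (80.6 CPM) was above the other 5 libraries without paclitaxel (9.06 to 31.0 CPM). MMP2 in palbociclib (55.2 CPM) was above the same kind of group, where the other 5 reached 31.9 CPM. MMP14 in palbociclib (7.25 CPM) was above the other 3 libraries without JQ1 (0.471 to 0.780 CPM). HTRA3 in paclitaxel (42.5 CPM) was above the other 3 libraries without JQ1 (19.8 to 22.1 CPM) and above the other 5 without palbociclib (17.2 to 22.1 CPM). The groups mix treatments, and the part of treatment in these gaps was not tested.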

How the results depend on the processing

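HTRA1 and TIMP2 were called higher with JQ1 under all alternatives run. With 1 library left out, the members called ranged from 2 to 3 for JQ1, 0 to 3 for palbociclib, 0 to 0 for paclitaxel and 0 to 4 for each interaction. In the same fits the share of all genes called ranged from 19.0 to 45.7% for JQ1, 0 to 10.2% for palbociclib, 0 to 0.0432% for paclitaxel, 0 to 12.1% for the interaction with palbociclib and 0.0108 to 12.4% for that with paclitaxel. The palbociclib count was 3 with DESeq2 (5.54% of all genes called), 2 without TMM factors (0.366%), 2 without the expression filter (0.214%), 2 at 20 CPM (0.32%), 2 in cells passing the study's filter (0.399%), 2 with equal cells (0.419%) and 0 with experiment as a term (0%). Without the cells of most UMIs it stayed at 1, but the gene was TIMP2 (adjusted p = 0.047) and not HTRA1. Interactions could not be fitted without paclitaxel, JQ1+paclitaxel, palbociclib or JQ1+palbociclib. PLAU could not be tested at 20 CPM.

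Signs turned for estimates that did not pass with all 8 libraries and TMM scaling, those of MMP1 included, and the cause was not tested. With JQ1, TIMP1 was at -0.17 without TMM factors, -0.00436 without the filter, -0.24 with experiment as a term, -0.24 with matched pairs and -0.54 in the paclitaxel experiment, and TIMP3 at -0.11 without TMM factors, -0.0507 with experiment as a term, -0.0529 with matched pairs and -0.0594 in that experiment, where MMP1 was at -0.96 and MMP2 at 0.11. With palbociclib at 20 CPM, TIMP1 was at 0.00322 and HTRA3 at 0.0320. With paclitaxel, MMP2 was at -0.0225 without TMM factors, -0.0101 at 20 CPM and -0.000886 without the cells of most UMIs, TIMP1 at -0.00876 at 20 CPM, -0.00832 with equal cells and -0.21 with experiment as a term, and TIMP3 at -0.0733 with that term. In the interaction with palbociclib HTRA3 was at 0.11 without TMM factors, 0.00718 without the filter and 0.0483 without the cells of most UMIs.

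With 1 library left out, the JQ1 estimate ranged from -0.43 to 1.33 for MMP1, -0.36 to 0.0436 for MMP2, -0.22 to 0.34 for TIMP1 and -0.10 to 0.26 for TIMP3. The palbociclib estimate ranged from -1.44 (without JQ1+palbociclib) to 2.20 for MMP1, -0.36 to 0.18 for TIMP1, -0.12 to 0.22 for TIMP3 and -0.16 to 0.0673 for HTRA3. The paclitaxel estimate ranged from -2.49 (without paclitaxel) to 1.41 for MMP1, -0.32 to 0.31 for MMP2, -0.70 to 0.59 for TIMP1 and -0.18 to 0.54 for TIMP3. The interaction of TIMP1 with palbociclib ranged from -0.52 to 0.59.

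Of 216 alternative levels per library 184 stayed within the counting interval, and of 108 correlations 105 did. Of 144 shares of cells at other depths 121 lay outside the exact binomial interval. These alternatives used more UMIs per cell, which raises detection, so that count tests nothing. By replicate number, no paired analysis was possible because the groups compared share fewer than 2 replicate numbers. With JQ1 and its counterpart libraries matched by partner drug as 3 blocks, the JQ1 estimate was 1.54 for HTRA1 (adjusted p = 0.0347), 0.99 for TIMP2 (0.0349) and -0.36 for PLAU (0.258). Depth limits MMP14, which had 5 UMIs in DMSO.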
